A study of Mus musculus with 20 samples.

Results

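Liver tumors raised in mice by MYC together with a CRISPR guide against Trp53 were compared with control livers by RNA sequencing of whole tissue. The comparison used 10 of the 20 libraries of the series, chosen by their labels alone: 5 sgTrp53+MYC tumors and 5 livers. Every mouse was a wild-type C57Bl6J female by the labels and methods, a young adult at injection and fasted before sampling. The tumors followed hydrodynamic injection of a plasmid with Cas9 and the sgTrp53 guide, a transposon carrying MYC behind the EF1a promoter, and the Sleeping Beauty transposase. The injection reaches only a subset of hepatocytes, and EF1a is not a promoter of hepatocytes alone. RNA came from individual tumors, each from a different mouse by the study's text. The labels call the livers healthy and non-treated, with the same genotype, whereas the study's text describes the control livers of this comparison as injected with a plasmid for a red fluorescent protein. No group received MYC alone or the guide alone, so the effects of both cannot be told apart here. The mice of the other 10 libraries carried MYC with FGF19 or Aldafermin and serve here for the filter on low counts, the estimate of the spread between libraries and a few levels given for reference.

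The tumor suppressor p53, the product of Trp53, activates genes that halt the cell cycle, repair DNA or start apoptosis. MYC pairs with MAX on promoters and drives ribosome production, nucleotide synthesis and entry into the cell cycle. Hepatocytes of the adult liver rarely divide and fill much of their messenger RNA with transcripts for plasma proteins and metabolic enzymes, while the fetal liver makes alpha-fetoprotein and expresses growth genes that are silenced after birth.

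The tumor libraries held 54042455 to 66354724 reads counted on genes and the livers 21376918 to 44427184, so that the livers set the precision for rare transcripts. Tumors and livers were deposited in separate count tables, and condition and table cannot be told apart. Reads that lay on more than 1 gene made up 12.9% ± 1.56 of reads in tumors and 4.48% ± 0.783 in livers (SD, n = 5 each). Reads that were not aligned made up 5.87% ± 0.575 and 23.6% ± 4.49. Either difference had a two-sided p of 0.00794 in an exact permutation test, the smallest that 5 against 5 allows. In the tumors with FGF19 or Aldafermin, which share the table of the livers, these shares were 3.026% to 6.296% and 15.29% to 34.04%. Neither range overlapped that of the sgTrp53+MYC tumors, 11.11% to 14.6% and 5.34% to 6.821%. The cause of these differences was not tested. The counting left out reads shared by genes, so genes whose exons overlap another gene are uncertain. Values below are CPM, read counts divided by the library's total and scaled by TMM, a factor that assumes most genes keep their level. TMM factors were 0.615 to 0.682 in livers and 1.04 to 1.31 in tumors. Scaling by library totals alone would raise the median log2 fold change of all genes from 0.07 to 0.95, and list medians below are therefore given as the distance from the median of all genes. Because whole tissue was sequenced, fewer cells of a type and less RNA per cell cannot be told apart.

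Most of the transcriptome differed between tumors and livers. Of 14333 genes tested with edgeR's quasi-likelihood test, 10019 (69.9%) were called at a Benjamini-Hochberg adjusted p below 0.05, with 5286 (36.9%) higher in tumors and 4733 (33.0%) lower. By library totals the split was 8534 higher and 2423 lower. At least 4-fold differences were called for 1825 genes (12.7%) that were higher and 1791 genes (12.5%) that were lower. These shares are the background for every list below, since a list with 37 in 100 members higher only matches the transcriptome. For 8061 genes (56.2%) the 5 tumors and the 5 livers did not overlap. The scatter of mean levels shows how the 2 groups parted over the range of expression.

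Tumor 2 and liver 4 stood apart within their groups for sets of single genes. Over all genes tumor 1 added most to the spread among tumors. Without tumor 1 the median standard deviation of log2 CPM among tumors was 0.311, in place of 0.447. With genes counted where 1 tumor held at least 10 CPM and at least 10 times the next tumor, a rule chosen after the values were seen, tumor 2 had 75 genes and tumors 1, 3, 4 and 5 had 7, 2, 5 and 3. Of 33 genes that were called higher with a log2 fold change of 6 or more and at least 100 CPM in tumors, liver 4 had the highest liver level for 26. Their median level was 0.807% of the tumor mean in liver 4 and 0.167% to 0.215% in the other livers, and the source of these reads was not tested. Without tumor 2, 5117 genes were higher and 4664 lower, and without liver 4, 5127 and 4597. Results of single genes that turned on either library are given with the value without it.

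**Figure D1:**
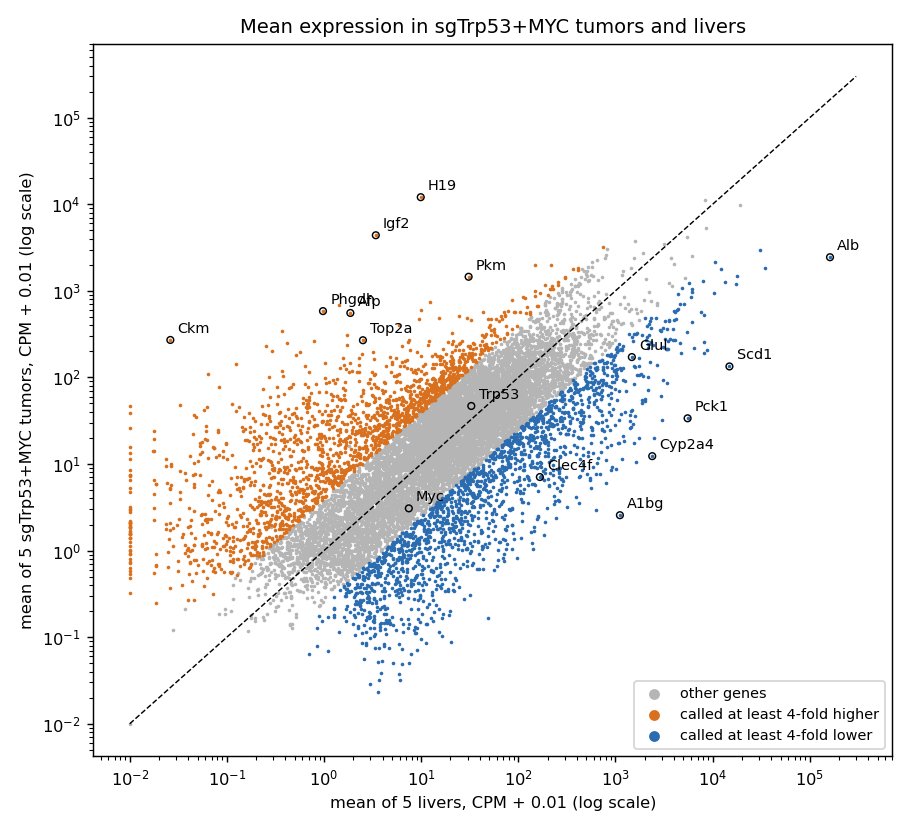
Mean CPM of each of 14333 genes in 5 livers (x axis, log scale) against 5 sgTrp53+MYC tumors (y axis, log scale), with 0.01 CPM added so that genes at 0 are shown. Genes called at least 4-fold higher (1825) are orange, at least 4-fold lower (1791) blue and the rest grey; named genes such as H19 and Igf2 sit far above the line of equal levels and Alb and Pck1 far below it.

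Trp53 itself did not separate the groups. Trp53 stood at 18.7, 79.9, 35.4, 51.0 and 48.8 CPM in tumors 1 to 5 and at 33.4, 36.4, 34.5, 30.9 and 28.8 CPM in livers 1 to 5. The log2 fold change was 0.51 ± 0.26 (SE) with an adjusted p of 0.08313. Tumor 2 was highest and tumor 1 lowest, on either side of all livers. Without tumor 1 the log2 fold change was 0.71 (adjusted p = 0.00401), and by library totals 1.41 (adjusted p = 0.000189). Small insertions or deletions at a Cas9 cut need not change a gene-level count, so this level does not check the edit. The gene lies at chr11:69469669-69482701 on the plus strand of GRCm39. The mouse Myc gene, at chr15:61857227-61862223 on the plus strand of GRCm39, was lower in tumors, although a MYC transgene was delivered. Myc stood at 2.67, 2.94, 4.30, 2.86 and 2.55 CPM in tumors 1 to 5 and at 6.67, 5.24, 7.51, 11.4 and 6.42 CPM in livers 1 to 5. Myc thus had a log2 fold change of -1.28 ± 0.40 (adjusted p = 0.008575). The tables have no row for the transgene, and every liver stood above every tumor for the mouse gene. By library totals its log2 fold change was -0.38 (adjusted p = 0.431).

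Genes that p53 activates moved in both directions. Of 30 listed targets, all tested, 12 (40.0%) were higher and 10 (33.3%) lower, close to the background of 36.9% and 33.0%. Their median lay 0.11 above that of all genes. By library totals 3 of the targets were called lower, in place of 10. Cdkn1a, the p21 inhibitor of cyclin-dependent kinases, was higher in tumors. Cdkn1a stood at 19, 18.8, 22.5, 23.0 and 32.8 CPM in tumors 1 to 5 and at 3.37, 2.38, 1.15, 16.6 and 6.69 CPM in livers 1 to 5. Between the groups, Cdkn1a differed by 1.96 ± 0.48 on the log2 scale (adjusted p = 0.001177). Liver 4 came near the tumors at 16.6 CPM and the other livers stayed at 6.69 CPM or below. Mdm2, which encodes the ligase that degrades p53, overlapped between the groups. Mdm2 stood at 35.1, 39.3, 27.8, 34.0 and 33.5 CPM in tumors 1 to 5 and at 30.6, 31.4, 28.2, 27.2 and 31.4 CPM in livers 1 to 5. For Mdm2 the fit gave a log2 fold change of 0.19 ± 0.14 (adjusted p = 0.2547). Mdm2 was called higher with 10 libraries only (0.31, adjusted p = 0.0476), without a filter (0.47, adjusted p = 0.0182) and by library totals (1.07, adjusted p = 3.907e-06). Targets with a part in cell death moved both ways. Bax had a log2 fold change of 0.96, Bbc3 of 1.07, Pmaip1 of 2.86 and the death receptor gene Tnfrsf10b of 3.17, all called higher. The largest rise of the list was that of Psrc1, a spindle gene, from 0.133 ± 0.102 CPM in livers to 26.9 ± 7.04 CPM in tumors (mean ± SD, n = 5 each). Fas, another death receptor gene, fell, with a log2 fold change of -3.25, as did Trp53inp1, a cofactor in p53-driven death and autophagy, with -2.98, and the stress kinase gene Plk3 with -2.96.

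Of 7 listed inhibitors of cyclin-dependent kinases, 5 were tested, 4 were higher and 1 lower. Cdkn1c, the imprinted gene for p57, rose most. Cdkn1c stood at 37.8, 35.9, 30.8, 58.6 and 55.9 CPM in tumors 1 to 5 and at 2.73, 3.41, 2.96, 3.89 and 4.38 CPM in livers 1 to 5. This was a log2 fold change of 3.65 ± 0.34 with an adjusted p of 1.486e-08. All tumors lay above all livers. Cdkn2c rose by a log2 fold change of 1.31 and Cdkn1b by 0.68, while Cdkn2d fell with -1.01. Cdkn2a, which encodes p16 and the p53 activator ARF, did not pass the filter, since it was above 1 CPM in tumor 2 alone among these tumors and livers. It had 14, 5785, 13, 58 and 6 reads in tumors 1 to 5 and 0, 4, 9, 1 and 5 reads in livers 1 to 5. Its neighbor Cdkn2b had 21, 537, 17, 18 and 12 reads in the tumors and 3 to 12 in the livers. Tumor 2, the tumor with the highest Trp53 level, thus stood alone for both genes.

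Among partners of MYC, Max rose and Mycl fell. In the list of MYC, MAX and MXD genes 12 of 13 members were tested, with 6 higher and 5 lower. Max, the obligate partner, rose with log2 fold change 1.34 ± 0.13, adjusted p = 1.669e-08, from 30.3 ± 2.53 to 76.5 ± 8.74 CPM. Mycl, a MYC paralog, stood at 1.09, 0.966, 1.64, 0.531 and 0.353 CPM in tumors 1 to 5 and at 33.9, 35.4, 36.2, 54.0 and 36.5 CPM in livers 1 to 5. Its log2 fold change was -5.41 (adjusted p = 9.121e-07), and no tumor came near a liver. Of the MXD antagonists, Mxd3 rose (3.80) and Mxd4 fell (-1.64). Mlxipl, the glucose-responsive factor ChREBP, fell with -1.65.

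Genes for making ribosomes and nucleotides rose nearly without exception. Of 35 ribosome biogenesis genes 34 (97.1%) were higher and 1 lower, 28 of them at least 4-fold, and the median lay 2.55 above that of all genes. The nucleolar protein gene Rrp1b rose most. Rrp1b stood at 99.2, 134, 158, 162 and 205 CPM in tumors 1 to 5 and at 5.95, 6.42, 8.30, 6.69 and 4.18 CPM in livers 1 to 5. The log2 fold change was 4.59 ± 0.25 (SE) with an adjusted p of 8.98e-12. Nop56, a core component of the particles that methylate ribosomal RNA, rose by 3.97. The abundant nucleolar genes Ncl and Npm1 rose from 214 ± 25.7 to 2001 ± 521 CPM and from 149.6 ± 15.3 to 2009.6 ± 505 CPM. Rcl1 was the member that fell (-0.66), and by library totals it was at 0.22 and not called. Of 24 enzymes of purine and pyrimidine synthesis 23 (95.8%) were higher and none lower, and the median lay 2.44 above that of all genes. Impdh1, which commits purines to guanine nucleotides, stood at 165, 118, 108, 180.2 and 181 CPM in tumors 1 to 5 and at 4.45, 3.70, 4.95, 6.76 and 4.86 CPM in livers 1 to 5 (log2 fold change 4.93 ± 0.21, adjusted p = 3.406e-13). Cad, the enzyme that starts pyrimidine synthesis, rose by 4.43 and Ctps, which makes CTP, by 4.31. Paics was the member not called (it rose by 0.74 by library totals), at 318 ± 54.7 CPM in tumors and 348 ± 30.8 CPM in livers. No tumor overlapped a liver for Rrp1b, Impdh1 or Cad.

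Polyamine genes moved in both directions. Of 10 listed genes 4 (40%) were higher and 4 (40%) lower, near the background, and their median lay 0.455 below that of all genes (-0.455). Those higher were the 4 synthetic genes Odc1, Amd1, Srm and Sms. Srm, spermidine synthase, stood at 452, 436, 355, 555 and 628 CPM in tumors 1 to 5 and at 25.9, 31.2, 31.9, 25.0 and 32.6 CPM in livers 1 to 5 (log2 fold change 4.05 ± 0.18, adjusted p = 4.64e-13). Odc1, the rate-limiting decarboxylase, rose by 2.65, and the 4 genes that fell were the antizyme genes Oaz1 and Oaz2, the antizyme inhibitor gene Azin1 and the oxidase gene Paox, by 0.80, 0.57, 0.55 and 0.55 on the log2 scale. By library totals the last 4 turned to log2 fold changes of 0.069, 0.33, 0.33 and 0.31, none called. Paox also lost its call without any of tumors 3 to 5 or livers 3 to 5 (adjusted p from 0.0526 to 0.08985). Aminoacyl-tRNA synthetases were higher for 16 of 19 members tested and lower for 2. Vars, which charges valine tRNA, rose from 59.3 ± 5.77 to 474 ± 138 CPM, and Aars, which charges alanine tRNA, fell from 254 ± 44.4 to 65.0 ± 20.8 CPM. Of 46 cytosolic ribosomal protein genes 45 (97.8%) were higher, with 6 at least 4-fold and a median 1.48 above that of all genes. Their summed level ranged from 32684 to 96619.8 CPM in tumors and from 12569 to 20938 CPM in livers. Rplp0 took the most reads of the list, at 5319, 4115, 1872, 2463 and 2285 CPM in tumors 1 to 5 and 645, 654, 551, 996 and 910.1 CPM in livers 1 to 5. Tumor 1 carried the most, and for Rpl35 it stood at 1926 CPM against 485 to 867 CPM in the other tumors.

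The Srm promoter is shown because it holds the letters CACGTG, the palindromic E-box bound by MYC and MAX, and Srm had the largest rise of the 6 called genes among ribosome biogenesis, nucleotide and polyamine genes that hold them in this stretch. It spans chr4:148675690-148675939 on the plus strand of GRCm39, the 250 bases before the start of the gene, and the capitals mark the E-box at position -152.
Srm: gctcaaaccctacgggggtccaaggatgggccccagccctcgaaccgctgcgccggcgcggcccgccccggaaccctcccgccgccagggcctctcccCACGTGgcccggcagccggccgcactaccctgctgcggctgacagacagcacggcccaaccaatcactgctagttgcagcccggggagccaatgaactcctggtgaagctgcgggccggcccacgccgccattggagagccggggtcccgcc
In windows from 250 bases before to 50 after the start, 8.31% of 19358 promoters held CACGTG, as did 9.99% of the 12367 promoters of genes tested. The share was 11.5% of 1510 promoters of genes at least 4-fold higher and 7.65% of 1530 of genes at least 4-fold lower. Of 35 ribosome biogenesis promoters 17.1% held it, and of 22 promoters of nucleotide synthesis genes 22.7%. Lists that fell ranged from 0% of 38 plasma protein promoters to 23.1% of 13 promoters of bile acid synthesis enzymes and 35.3% of 17 promoters of clock genes. These are matches of letters and no measure of binding. The plot of motif shares sets them beside the other motifs.

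**Figure D2:**
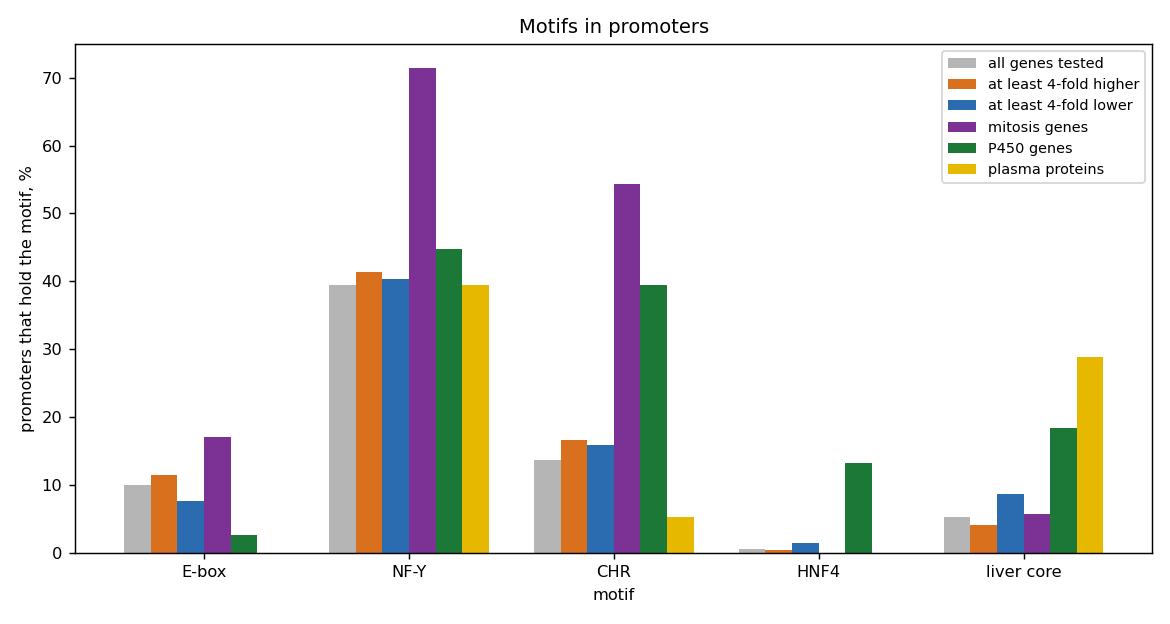
Percent of promoters (y axis) that hold each of 5 motifs on either strand within 250 bases before to 50 after the start, for all 12367 promoters of genes tested and for genes at least 4-fold higher, genes at least 4-fold lower and 3 gene lists (bars). The mitosis list is highest for CHR (54.3% against 13.7%) and the plasma protein list for the liver core motif (28.9% against 5.30%); the bars have no error and no test.

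Genes of DNA replication and mitosis rose in nearly every member. Of 34 replication genes 33 (97.1%) were higher, 31 of them at least 4-fold, with a median 3.43 above that of all genes. Mcm2 to Mcm7, the helicase subunits, rose by log2 fold changes of 4.93, 3.83, 3.46, 5.01, 5.20 and 3.54. Orc1, the subunit of the origin complex that cycling cells make, stood at 14.2, 10.6, 9.85, 11.3 and 13.2 CPM in tumors 1 to 5 against 5 reads in all livers together. That is a ratio of 245 with a counting interval of 105 to 755. Of 35 mitotic genes 34 (97.1%) were higher, all 34 at least 4-fold, with a median 6.0 above that of all genes. Their summed level was 2774 to 3608.5 CPM in tumors and 79.1 to 150 CPM in livers. Top2a, which untangles DNA before division, took the most reads of the list. Top2a stood at 185, 269, 294, 331 and 265 CPM in tumors 1 to 5 and at 0.932, 1.72, 2.74, 6.01 and 1.12 CPM in livers 1 to 5. Top2a thus had a log2 fold change of 6.76 ± 0.43 (adjusted p = 6.491e-11). Ttk, a checkpoint kinase gene, rose by 7.72 and Bub1 by 7.65. Mki67, the proliferation marker, rose from 3.27 ± 1.81 to 162 ± 48.1 CPM. Pttg1, the securin gene, was the exception of the list and fell. Pttg1 stood at 7.58, 12.4, 5.10, 6.21 and 7.17 CPM in tumors 1 to 5 and at 31.6, 36.2, 29.1, 35.0 and 31.5 CPM in livers 1 to 5. Between the groups, Pttg1 differed by -2.09 ± 0.19 on the log2 scale (adjusted p = 7.754e-09). No tumor overlapped a liver for it.

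Cyclins, kinases and E2F factors of G1 rose in most members, and cyclin D1 was an exception. Of 22 listed genes 17 (77.3%) were higher and 2 lower. Ccnd1, the cyclin D1 gene, was among the 2 that fell. Ccnd1 stood at 25.8, 70.7, 22.0, 16.2 and 10.2 CPM in tumors 1 to 5 and at 214, 170.5, 443, 172 and 105 CPM in livers 1 to 5. For Ccnd1 the fit gave a log2 fold change of -2.93 ± 0.64 (adjusted p = 0.0004357). Its exons overlap a gene on the other strand over 48.4% of their length. Rbl2, the p130 pocket protein, was the other (-1.17). Ccnd2 differed widely between tumors, at 2.32, 51.6, 10.1, 3.65 and 4.83 CPM in tumors 1 to 5, and was not called. The kinase gene Cdk4 rose from 50.6 ± 5.53 to 398 ± 60.3 CPM, and the later cyclin genes Ccne2 and Ccna2 rose by 4.59 and 7.16.

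The Top2a promoter is shown for the arrangement that many mitotic promoters share, CCAAT boxes bound by NF-Y together with TTTGAA, the cell cycle homology region (CHR). It had the largest rise of the 7 called mitosis genes with both motifs in the 250 bases before the start. It spans chr11:98915042-98915291 on the minus strand of GRCm39, and the capitals mark 6 matches to CCAAT or its reverse complement and the CHR at -153.
Top2a: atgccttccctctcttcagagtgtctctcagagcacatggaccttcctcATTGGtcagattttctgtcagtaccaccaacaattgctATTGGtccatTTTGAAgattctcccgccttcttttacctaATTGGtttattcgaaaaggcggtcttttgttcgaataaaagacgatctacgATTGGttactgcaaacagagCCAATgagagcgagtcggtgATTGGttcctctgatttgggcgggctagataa
The CHR letters were found in 15.8% of all promoters, in 16.6% of those of genes at least 4-fold higher and in 54.3% of 35 mitosis promoters. Of 38 cytochrome P450 promoters, whose genes fell, 39.5% held them too. CCAAT was found in 39.4% of all promoters, in 41.3% of those of genes at least 4-fold higher and in 71.4% of the mitosis promoters. No motif searched contains another.

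**Figure D3:**
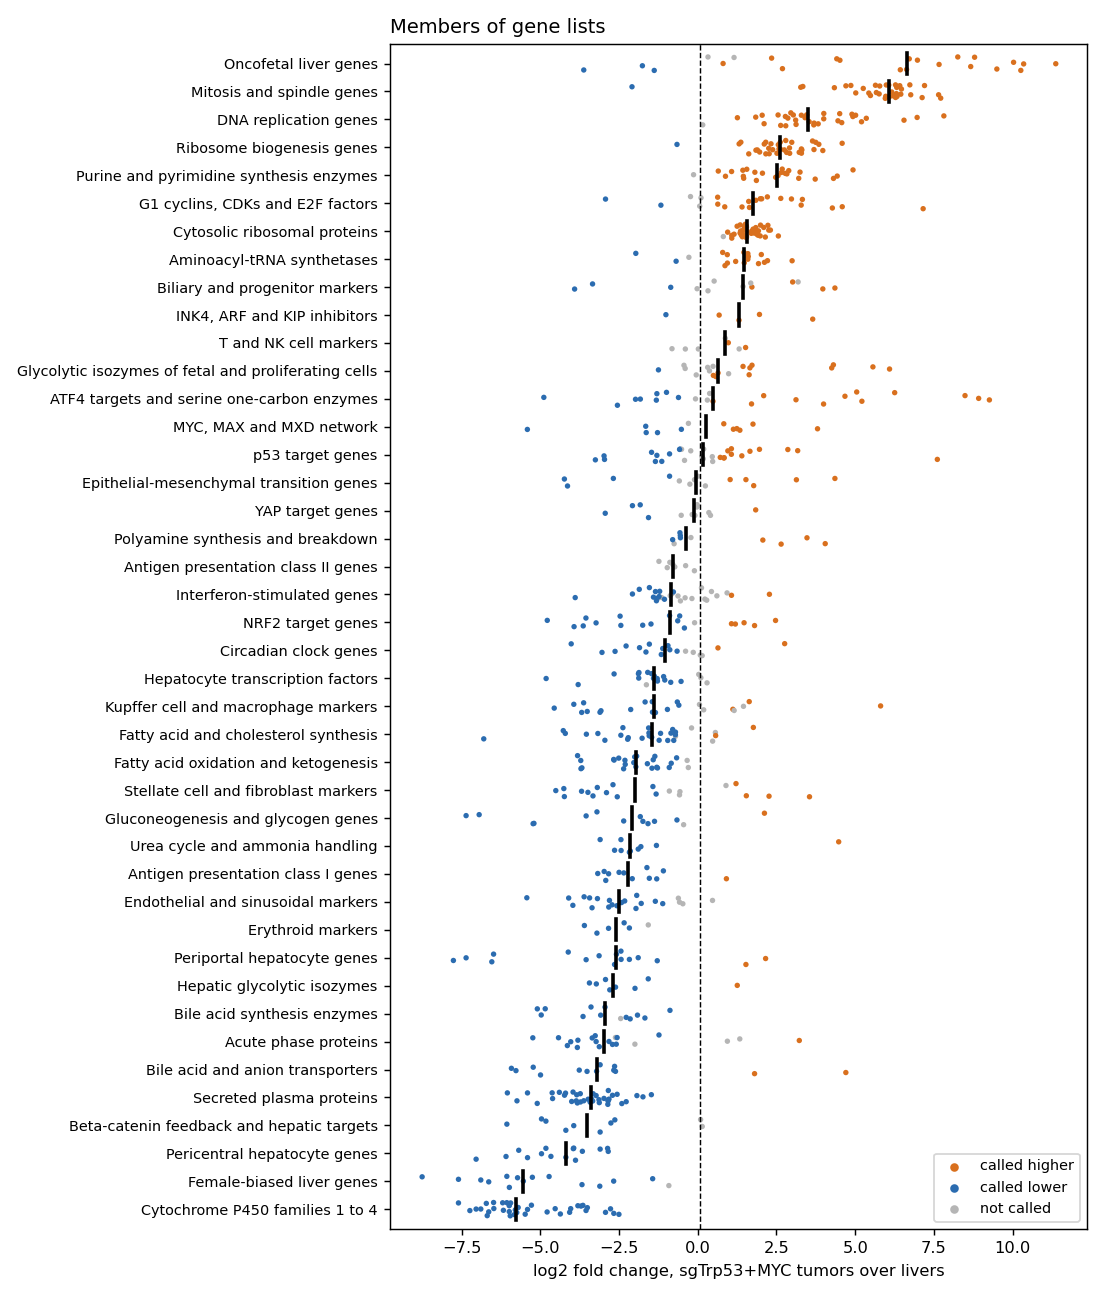
Log2 fold change of tumors over livers (x axis) for every tested member (points) of gene lists (rows), with the median of each list as a black bar; orange points were called higher, blue lower and grey were not called. The dashed line is the median of all genes (0.07); mitosis genes sit near 6 and cytochrome P450 genes near -6.

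Plasma proteins, the main product of hepatocytes, fell throughout. All 38 listed genes were lower (100%, against a background of 33.0%), 35 of them at least 4-fold, with a median 3.47 below that of all genes (-3.47). Alb, albumin, took the most reads of livers. Alb stood at 5425, 989.8, 2816, 2259 and 731 CPM in tumors 1 to 5 and at 166435, 156046, 147485, 177109 and 160503 CPM in livers 1 to 5. This was a log2 fold change of -6.05 ± 0.61 with an adjusted p of 4.163e-08. It took 10.3% of counted liver reads and 0.280% of tumor reads. Tumor 1 kept the most and tumor 5 the least. Trf, transferrin, fell from 34329 ± 4108 to 1828 ± 814 CPM, and Apoe from 30889 ± 4368 to 2976 ± 1403 CPM. Itih3 fell least, by 1.47 on the log2 scale. The 10 genes with the most reads in a library held 7.39% ± 0.284 of tumor reads and 21.4% ± 1.09 of liver reads (SD, n = 5 each; exact permutation test, two-sided p = 0.00794, the smallest possible). In tumors the noncoding H19 took the most reads, followed by Eef1a1 and the mitochondrial COX1.

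The Alb promoter is shown because it carries GTTAAT, here called the liver core motif since it is known from promoters of hepatocyte genes, and Alb fell most among the 10 plasma protein genes that hold it. The 250 bases span chr5:90608499-90608748 on the plus strand of GRCm39, with the match in capitals at -52.
Alb: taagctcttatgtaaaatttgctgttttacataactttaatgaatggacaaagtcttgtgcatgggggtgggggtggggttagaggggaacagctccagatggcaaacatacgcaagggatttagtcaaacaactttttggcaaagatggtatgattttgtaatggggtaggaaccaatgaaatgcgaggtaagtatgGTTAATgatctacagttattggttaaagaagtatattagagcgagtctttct
GTTAAT or its reverse complement was found in 6.10% of all promoters, 8.63% of those of genes at least 4-fold lower, 4.11% of those at least 4-fold higher and 28.9% of 38 plasma protein promoters. Other lists that fell ranged from 0% of 13 promoters of bile acid synthesis enzymes to 26.7% of 15 promoters of genes that female livers make in excess. Of 46 promoters of cytosolic ribosomal proteins, a list that rose, 13.0% held it.

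Cytochrome P450 genes, which oxidize drugs, steroids and fatty acids, fell further. All 38 tested members of families 1 to 4 were lower and all at least 4-fold, with a median -5.84 from that of all genes. Cyp4a12a, which male livers make, was below the filter with at most 13 reads in any library. Cyp2e1, the ethanol-oxidizing enzyme, stood at 701, 58.2, 222, 25.4 and 20 CPM in tumors 1 to 5 and at 9351, 11849, 7945, 5499 and 8898 CPM in livers 1 to 5 (log2 fold change -5.41 ± 1.67, adjusted p = 0.007333). Tumors 1 and 3 kept more of it than the other tumors. Cyp2a4 was likewise highest in tumors 3 and 1, at 11.6, 0.742, 45.3, 3.32 and 0.691 CPM against 2644, 2344, 2838, 2276 and 1843 CPM in the livers. Cyp1a2 fell by 7.04 and Cyp3a11 by 4.04 on the log2 scale. Reads of near-identical P450 paralogs can be lost or split, so single members are less certain than the list.
The Cyp2c69 promoter is printed because it holds CAAAGTCCA, a site of HNF4, the nuclear receptor that governs hepatocyte genes, and had the largest fall of the 5 P450 genes with this motif. It spans chr19:39875244-39875493 on the minus strand of GRCm39, with the match at -45 in capitals.
Cyp2c69: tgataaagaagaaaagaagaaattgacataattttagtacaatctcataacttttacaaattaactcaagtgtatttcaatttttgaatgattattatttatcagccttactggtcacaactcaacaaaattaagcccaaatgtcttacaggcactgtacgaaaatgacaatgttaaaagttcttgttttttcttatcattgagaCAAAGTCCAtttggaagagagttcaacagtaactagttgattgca
These letters were found in 0.475% of all promoters, 1.37% of those of genes at least 4-fold lower and 13.2% of 38 P450 promoters. Other lists that fell ranged from 0% of 38 plasma protein promoters to 23.1% of 13 promoters of bile acid synthesis enzymes. Of 46 promoters of cytosolic ribosomal proteins, a list that rose, 4.35% held them. Hnf4a itself fell, and no tumor overlapped a liver, but by library totals it was at -0.39 with an adjusted p of 0.121. Hnf4a stood at 269, 354, 478, 591 and 504 CPM in tumors 1 to 5 and at 1107, 1089.6, 1043, 1054 and 1069 CPM in livers 1 to 5. The log2 fold change was -1.29 ± 0.20 (SE) with an adjusted p of 1.059e-05. Cyp2c69 fell from 1608 ± 641 to 10.7 ± 13.6 CPM.

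Genes of both ends of the liver lobule fell. Hepatocytes near the central vein respond to WNT signals and make glutamine, and those near the portal vein make urea and glucose. All 15 tested pericentral genes were lower, each at least 4-fold, with a median -4.26 from that of all genes. Glul, glutamine synthetase, stood at 160.0, 132, 246, 204 and 117 CPM in tumors 1 to 5 and at 1862, 1834, 1579.7, 892 and 1199 CPM in livers 1 to 5 (log2 fold change -3.10 ± 0.33, adjusted p = 9.876e-08). The WNT feedback genes Axin2, Lgr5 and Notum fell by 4.82, 4.96 and 6.06 on the log2 scale, while Ctnnb1, which encodes beta-catenin, was at 364 ± 85.6 CPM in tumors and 342 ± 21.2 CPM in livers and was not called. Of 16 periportal genes 14 (87.5%) were lower and 2 higher. Pck1, which starts gluconeogenesis, fell most in the glucose list. Pck1 stood at 95.8, 5.97, 51.9, 10.1 and 4.73 CPM in tumors 1 to 5 and at 5007, 4890.1, 3862, 6997 and 6869.9 CPM in livers 1 to 5. Pck1 thus had a log2 fold change of -7.36 ± 1.34 (adjusted p = 7.189e-05). Tumor 1 kept the most and tumor 5 the least. G6pc, the last enzyme of glucose release, fell by 3.20 on the log2 scale, and Pck2, the mitochondrial isozyme of Pck1, rose (2.12). The 2 periportal genes that rose were Aldh1b1, an aldehyde dehydrogenase, by 2.15 and Cdh1, E-cadherin, by 1.53.

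Genes of the urea cycle and ammonia handling fell in most members. Of 10 genes 9 were lower and 1 higher. Cps1, the entry enzyme, fell by 1.89 and Arg1, arginase, by 2.64 on the log2 scale. Gls2, the liver glutaminase, fell as well. Gls2 stood at 199, 95.6, 154, 139 and 158 CPM in tumors 1 to 5 and at 546, 869.7, 789.5, 969 and 876 CPM in livers 1 to 5. Between the groups, Gls2 differed by -2.44 ± 0.21 on the log2 scale (adjusted p = 3.456e-09). The groups did not overlap for Gls2.

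Bile acid and lipid metabolism fell in most members. Of 13 bile acid synthesis enzymes 12 (92.3%) were lower and none higher, with Slc27a5 (-5.09) and Cyp27a1 (-4.97) lowest. Cyp7a1, the rate-limiting enzyme, was not called. Cyp7a1 stood at 92.6, 37.2, 72.8, 4.53 and 61.2 CPM in tumors 1 to 5 and at 199, 218, 534, 117 and 397 CPM in livers 1 to 5. For Cyp7a1 the fit gave a log2 fold change of -2.45 ± 1.29 (adjusted p = 0.09812). All tumors lay below all livers. Of 13 tested bile acid and anion transporters 11 were lower, each at least 4-fold, including the uptake carrier gene Slc10a1 (-3.21) and the export pump gene Abcb11 (-3.10). The 2 that rose were Abcc4 (1.80), which exports bile acids to blood, and Slc51b (4.70), which encodes a subunit of another such exporter. Its partner gene Slc51a was below the filter. Slc51a had 17, 89, 12, 0 and 169 reads in tumors 1 to 5 and 0 in every liver. Slc51b stood at 88.3, 35.2, 4.53, 14.3 and 35.0 CPM in tumors 1 to 5 and at 1.44, 0.660, 2.03, 1.98 and 0.797 CPM in livers 1 to 5. Of 25 genes of fatty acid oxidation and ketogenesis 23 (92.0%) were lower, led by Fgf21 (-3.82), a fasting hormone, and Ehhadh (-3.71), a peroxisomal enzyme. Of 29 genes of fatty acid and cholesterol synthesis 23 (79.3%) were lower and 2 higher, and by library totals 15 were lower and 5 higher. Scd1, the desaturase that makes oleate, fell most. Scd1 stood at 61.4, 63.9, 336, 39.9 and 168 CPM in tumors 1 to 5 and at 5920.2, 13093, 26281, 16718 and 12429 CPM in livers 1 to 5. This was a log2 fold change of -6.80 ± 1.00 with an adjusted p of 6.53e-06. Tumor 3 was the highest tumor and liver 3 the highest liver. Fdft1 (0.57), a sterol enzyme, was among those that rose. Without tumor 3, 4 were higher.

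Hepatocyte transcription factors fell in most members. Of 20 factors 16 (80.0%) were lower and none higher, 3 of them at least 4-fold, with a median -1.46 from that of all genes. By library totals 9 of the factors were lower and 3 higher. Onecut2 (-4.82) and Nr1i3, the xenobiotic sensor CAR (-3.80), fell most, and the exons of Nr1i3 overlap a gene on the other strand over most of their length. Foxa1, Onecut1 and Nr0b2 were among those not called, and by library totals Foxa1 (0.93) and Onecut1 (1.18) were called higher. Nr0b2, a repressor induced by bile acids, was called without tumor 4 (log2 fold change -3.67, adjusted p = 0.000312). Genes that female livers make in excess fell in 14 of 15 tested members, led by A1bg. A1bg stood at 0.642, 0.0420, 12.1, 0 and 0.0154 CPM in tumors 1 to 5 and at 1258, 1452, 266, 1993 and 584 CPM in livers 1 to 5. The log2 fold change was -8.75 ± 2.35 (SE) with an adjusted p of 0.002667. Cyp2a4, Cyp2b9, Cyp2b13, Cyp3a41a and Cyp3a44 belong to both this list and the P450 list. Clock genes were lower for 12 of 18 tested and higher for 2, whereas by library totals 5 were lower and 6 higher. Dbp, a clock output gene, fell by 4.02 and Nr1d1 by 3.04 on the log2 scale, while Arntl, the core activator BMAL1, was at 3.73 ± 1.39 CPM in tumors and 3.55 ± 1.75 CPM in livers and was not called except by library totals (0.99, adjusted p = 0.0294). The hours of sampling are not given in the labels.

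Transcripts of fetal liver were among those with the most reads in tumors. Of 24 oncofetal genes 23 were tested, 18 (78.3%) were higher and 3 lower. Their median log2 fold change was 6.63, and 4.51 with the genes nearly absent from livers set at the floor of 3 reads per library. Without tumor 4 the median lay 4.32 above that of all genes, in place of 6.56, and without tumor 2 5 members were lower. H19, a long noncoding RNA at chr7:142129262-142133957 on the minus strand of GRCm39, took the most reads of tumors. H19 stood at 12242, 13049.5, 11741, 13745 and 9556 CPM in tumors 1 to 5 and at 0.430, 0.660, 0.265, 39.1 and 9.01 CPM in livers 1 to 5. H19 thus had a log2 fold change of 10.26 ± 1.21 (adjusted p = 3.467e-07). Liver 4 was the highest liver and far below every tumor. Its imprinted neighbor Igf2, at chr7:142204503-142220694 on the minus strand of GRCm39, encodes the fetal growth factor IGF2. Igf2 stood at 2037, 2767, 5086, 5179 and 6850.4 CPM in tumors 1 to 5 and at 1, 0.733, 0.839, 11.2 and 3.23 CPM in livers 1 to 5. Between the groups, Igf2 differed by 10.35 ± 0.82 on the log2 scale (adjusted p = 1.349e-09). Of the exons of Igf2 58.4% overlap another annotated gene on the same strand. Dlk1, a growth gene of hepatoblasts, was high in 4 of 5 tumors, at 3.94, 502, 412, 554 and 229 CPM in tumors 1 to 5, with the livers at 1.5 CPM or below. Afp, alpha-fetoprotein, stood at 445, 413, 295, 1267 and 355 CPM in tumors 1 to 5 and at 0.430, 0.440, 0.265, 6.35 and 1.79 CPM in livers 1 to 5 (log2 fold change 8.26 ± 0.83, adjusted p = 3.906e-08). Gpc3, glypican 3, rose from 1.56 ± 0.733 to 168 ± 132 CPM. Tumor 4 had the highest level of Afp and of Gpc3.

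RNA-binding proteins of the fetal growth program accompanied them. Igf2bp3, which binds Igf2 messenger RNA, stood at 56.9, 83.9, 108, 126 and 131 CPM in tumors 1 to 5, and the highest liver was at 0.956 CPM (log2 fold change 8.79 ± 0.60, adjusted p = 1.829e-10). Lin28b, which blocks maturation of let-7 microRNA, stood at 14.3, 5.15, 2.25, 12.7 and 8.5 CPM in the tumors. No liver had a read of it, and with 3 reads per liver as the floor its mean was at least 54.8-fold higher in tumors. Trim71, a let-7 target, was at 2.40, 4.63, 12.6, 14.1 and 13.5 CPM in the tumors against 1 read in all livers, a ratio of 977 with a counting interval of 175 to 38604. Hmga1, a chromatin protein, rose by 4.42. Its relative Hmga2 stood at 0.247, 56.7, 0.0461, 0.272 and 0.0307 CPM in tumors 1 to 5, and its call was lost without tumor 2 (log2 fold change 0.73, adjusted p = 0.490). Peg3, an imprinted gene, stood at 4.74, 0.700, 9.55, 151 and 16.7 CPM in tumors 1 to 5, and its call was lost without tumor 4 (0.15, adjusted p = 0.829). Plagl1 and Cd24a fell (-1.76 and -1.38), as did the secreted fetuin gene Ahsg (-3.62).

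Some of the largest rises were of genes with little role in adult liver. Fabp6, the bile acid binding protein of the ileum, stood at 92.2, 119, 4.84, 2.12 and 17.2 CPM in tumors 1 to 5 and had no read in any liver, so that the mean was at least 301-fold higher. Tumors 1 and 2 carried most of it. Ckm, the creatine kinase of muscle, stood at 549, 278, 55.5, 16.6 and 455 CPM in tumors 1 to 5 against 2 reads in all livers, a ratio of 14024 with a counting interval of 3882 to 115802. Of 16 skeletal muscle genes 4 were tested. Acta1, Myh1, Myh2, Myh4, Tnnt3 and Atp2a1 had at most 12 reads in any tumor, Neb fell (-3.58) and Mylpf rose by 0.79, to 2.12 ± 1 CPM. The call of Mylpf was lost without tumor 1 or without any of livers 3 to 5 (adjusted p from 0.0613 to 0.150). In the 10 tumors with FGF19 or Aldafermin, which share the table of the livers, mean Ckm was 0.0907 CPM and mean Fabp6 0.922 CPM. Lypd8, a secreted antibacterial protein of the colon, stood at 9.26, 39.5, 21.1, 48.4 and 76.8 CPM and Lingo3, a membrane protein, at 15.8, 43.8, 22.4, 27.6 and 19.8 CPM in tumors 1 to 5. No liver had a read of either, so that the means were at least 249-fold and 165-fold higher. Car12, a membrane carbonic anhydrase, was even across tumors, at 93.2, 109.7, 89.1, 131 and 131 CPM, against 0.273 CPM in the highest liver (log2 fold change 11.34 ± 0.52, adjusted p = 8.225e-13). Dao, D-amino acid oxidase, reached 43.4 CPM in tumor 5 and 3.40 CPM in tumor 4, with 1 read in all livers. A2m, the protease trap alpha-2-macroglobulin, rose from 0.115 ± 0.0794 to 142 ± 60.8 CPM and Baiap2l2, a membrane-bending protein, to 77.9 ± 17.4 CPM.

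**Figure D4:**
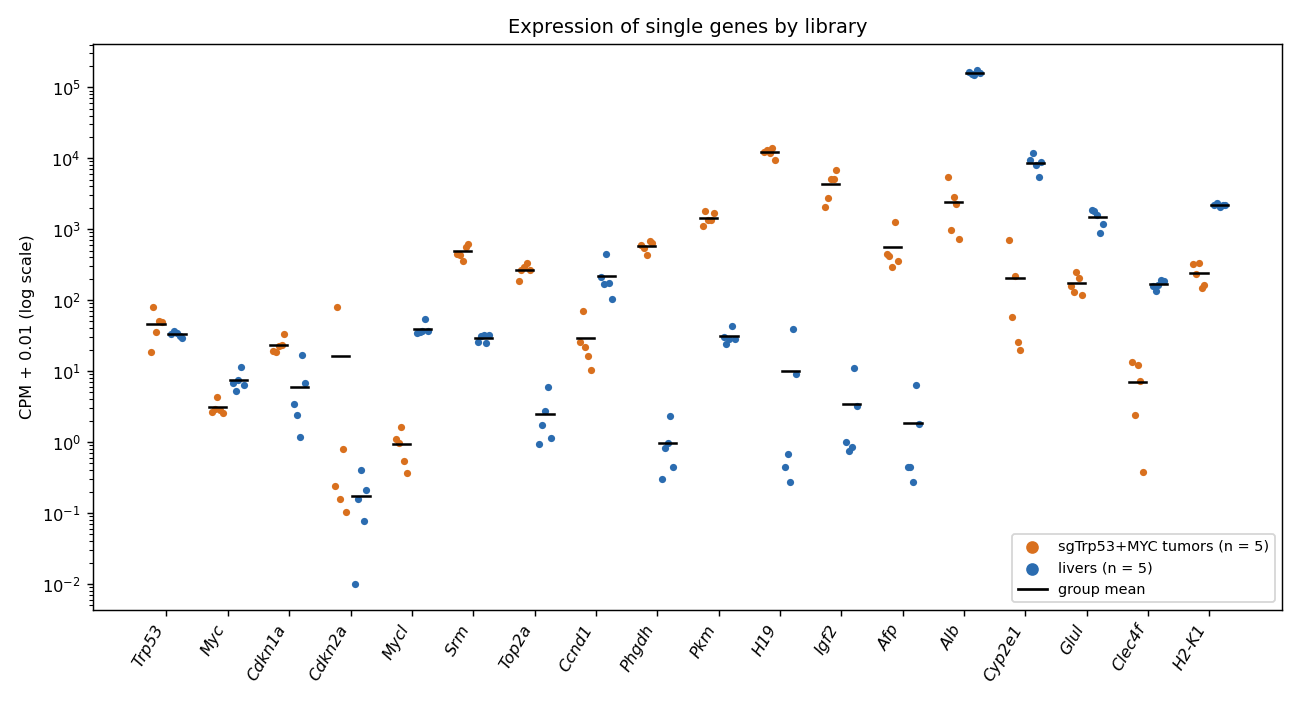
CPM (log scale, 0.01 CPM added so that 0 is shown) of 18 genes in each of 5 sgTrp53+MYC tumors (orange) and 5 livers (blue), 1 point per library, with the group mean as a bar. H19, Igf2, Phgdh and Top2a part without overlap, Trp53 and Cdkn2a overlap, and liver 4 is the highest liver for H19 and Phgdh.

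Enzymes of serine and asparagine synthesis rose. Phgdh, the first of the enzymes that make serine from glucose, stood at 593, 551, 439.6, 688 and 644 CPM in tumors 1 to 5 and at 0.287, 0.806, 0.972, 2.32 and 0.438 CPM in livers 1 to 5 (log2 fold change 9.26 ± 0.47, adjusted p = 2.789e-12). Psat1, the next enzyme, rose by 8.92 and Psph, the last, by 3.12, from 6.43 ± 0.855 to 55.9 ± 15.6 CPM. Asns, asparagine synthetase, was as even across tumors, at 250.4, 258, 189.8, 331 and 289 CPM, against 0.143 to 2.73 CPM in livers (log2 fold change 8.49 ± 0.60, adjusted p = 2.797e-10). Mthfd2 and Mthfd1l, the mitochondrial folate enzymes of embryos and tumors, rose by 4.67 and 5.21, and the folate enzyme of liver Aldh1l1 fell by 4.89 on the log2 scale. Amino acid carrier genes Slc7a1, Slc1a5 and Slc7a5 rose by 6.25, 5.05 and 4.00. Slc7a11, the cystine carrier, was below the filter, with 7, 274, 61, 36 and 74 reads in tumors 1 to 5 and 1 read in all livers. Other targets of the stress factor ATF4 went the other way, and the list as a whole had 12 of 23 tested members higher and 8 lower. Ddit3 (CHOP), Trib3 and Chac1 fell by 1.31, 1.82 and 1.98 on the log2 scale, and Atf4 was not called (0.38). By library totals Ddit3 (-0.42, adjusted p = 0.239) and Chac1 (-1.09, adjusted p = 0.118) lost their calls. With that scaling 3 of the listed members were lower, in place of 8, and Atf4 was called higher (1.25, adjusted p = 1.255e-06). Atf4 was also called higher without tumor 3 or liver 4 (adjusted p = 0.0155 and 0.0447) and, among other settings, with 10 libraries only (0.0277).

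Glycolysis changed isozymes. Pkm, pyruvate kinase M, stood at 1092, 1815, 1362, 1329.6 and 1669 CPM in tumors 1 to 5 and at 30.2, 24.4, 28.2, 42.8 and 28.2 CPM in livers 1 to 5 (log2 fold change 5.56 ± 0.22, adjusted p = 1.371e-13). Its liver counterpart Pklr fell by 2.93 on the log2 scale. Hk2, a hexokinase of growing cells, rose by 4.31 on the log2 scale. Of 19 tested isozymes of fetal and growing cells 11 (57.9%) were higher, 1 lower (Aldoc, -1.25) and 7 not called. Their median lay 0.574 above that of all genes. Of 8 hepatic isozymes 7 (87.5%) were lower and 1 higher (Pfkl, 1.255), with a median -2.77 from that of all genes. Slc16a3, a lactate carrier, was called, with tumor 2 at 105 CPM and the others at 3.90 to 9.19 CPM, and its log2 fold change of 6.09 was 4.14 without tumor 2. Ldha, lactate dehydrogenase, was at 1508 ± 291 CPM in tumors and 1164 ± 285 CPM in livers, and was not called, though it was without tumor 3 or liver 1 (adjusted p = 0.0421 and 0.0466) and under some other settings. Targets of NRF2, the sensor of oxidants, were lower for 13 of 19 tested and higher for 5, and by library totals 8 were lower. The detoxifying genes Ephx1 and Nqo1 fell by 4.78 and 3.93 on the log2 scale, and the genes that rose most were G6pdx (2.47), which supplies NADPH, and the exporter gene Abcc4. Of 12 targets and partners of YAP, the growth regulator, 4 (33.3%) were lower and 1 (8.33%) higher, against the background of 33.0% and 36.9%, and by library totals 2 were lower and 6 higher. The member that was higher, the partner factor gene Tead4, lost its call without any of tumors 2 and 4 or livers 1, 2 and 5.

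Markers of the other cells of the liver were mostly lower. Of 22 endothelial and sinusoidal markers 18 (81.8%) were lower and 0 higher (1, Emcn, at an unadjusted p under 0.05, and 1 called without liver 4; 0 by DESeq2), and their summed level was 155 to 303 CPM in tumors and 733 to 1218 CPM in livers. Clec4g, a gene of sinusoids, stood at 5.57, 0.574, 2.92, 0.749 and 0.138 CPM in tumors 1 to 5 and at 82.8, 61.6, 87.6, 93.7 and 102 CPM in livers 1 to 5. The general endothelial genes Pecam1 and Cdh5 were not called, at 20.9 ± 7.39 and 26.1 ± 11.4 CPM in tumors against 29.1 ± 7.37 and 39.9 ± 6.29 CPM in livers. Without tumor 3, the highest for Pecam1, both were called (log2 fold change -0.71 and -0.87, adjusted p = 0.0231 and 0.0320). Wnt2 and Rspo3, the signals that endothelium sends to pericentral hepatocytes, fell by 3.97 and 3.36 on the log2 scale. The part of these cells in the fall of the pericentral genes was not tested.

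Markers of stellate cells, which store vitamin A, were mostly lower. Of 20 stellate and fibroblast markers 12 (60%) were lower and 4 (20%) higher. Lrat, which esterifies retinol, fell by 4.25 and Ecm1 by 4.51 on the log2 scale. The 4 that rose were Acta2 (3.55), the smooth muscle actin of activated cells, and the fibrillar collagen genes Col1a1 (2.26), Col1a2 (1.54) and Col3a1 (1.22). Col1a1 stood at 27.1, 106, 71.1, 92.0 and 119 CPM in tumors 1 to 5 and at 16.3, 22.3, 6.76, 18.1 and 22.8 CPM in livers 1 to 5, with tumor 1 just above the highest liver. The call of Col3a1 was lost without tumor 3, liver 1 or liver 3 (adjusted p from 0.0530 to 0.0652).

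Of 22 Kupffer cell and macrophage markers 15 (68.2%) were lower and 3 higher, and by library totals 9 were lower and 5 higher. Clec4f, which Kupffer cells alone make in mice, stood at 13.2, 2.37, 12.2, 7.13 and 0.368 CPM in tumors 1 to 5 and at 158, 136, 165, 189 and 184 CPM in livers 1 to 5 (log2 fold change -4.56 ± 1.17, adjusted p = 0.001881). Timd4 and Vsig4 fell by 3.94 and 3.69 on the log2 scale. Gpnmb, a gene of lipid-laden macrophages that other cells can express, rose from 0.435 ± 0.261 to 24.7 ± 18.8 CPM, and Cd68 and Spic rose by 1.11 and 1.64. Lymphocyte markers were mostly near the limit of detection. The markers Trac, Trbc1, Trbc2, Ighm and Igkc had 0 reads in every tumor and liver, and the cause was not tested. Of 22 T and NK cell markers 7 were tested and 2 (28.6%) were higher, Cd4 (1.52) and Gzmb (0.97). Tumor 3 led with 125 reads of Cd8a and 120 of Cd3e, against 8 to 47 of Cd3e in the other tumors. Eomes, of the same list and below the filter, had 862 reads in tumor 2 and 58 in tumor 3. Without tumor 3 Cd4 was not called (adjusted p = 0.108) and 0 of the markers were higher and 2 lower, and Gzmb lost its call without any of tumors 1, 2, 3 and 5 or livers 1 to 3 (adjusted p from 0.0553 to 0.117). The summed level of the tested markers was 3.84 to 23.2 CPM in tumors and 6.36 to 8.06 CPM in livers. Of 10 neutrophil markers 3 were tested and edgeR called 0, with S100a8, a calprotectin subunit, at an unadjusted p under 0.05 and called higher by DESeq2. Below the filter, Ngp had 794 and Camp 139 reads in tumor 4, and Cxcr2 391 and Ly6g 122 reads in tumor 2. In livers these genes had at most 7, 4, 8 and 0 reads. Mpo, Elane and Retnlg had at most 43, 24 and 40 reads in any tumor. The B cell marker Cd79b fell (-2.44). Of 6 tested erythroid markers 5 were lower. Fabp4, a gene of adipocytes and of endothelium, rose (2.13) while the adipocyte markers Adipoq and Plin1 had at most 2 reads in any tumor. Of the pancreatic acinar markers Cela1 was tested and fell (-1.33).

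Genes that present antigen to CD8 T cells fell. Of 12 class I genes 11 (91.7%) were lower and 1 higher, 7 of them at least 4-fold, with a median -2.29 from that of all genes. By library totals 7 of the class I genes were lower, in place of 11. H2-K1, a class I heavy chain, stood at 327, 236, 338, 149 and 165 CPM in tumors 1 to 5 and at 2218, 2355, 2031, 2171 and 2204 CPM in livers 1 to 5 (log2 fold change -3.18 ± 0.35, adjusted p = 1.262e-07). B2m, its light chain, fell by 2.92 and Nlrc5, its transcriptional activator, by 2.83 on the log2 scale. Psmb10, a subunit of the immunoproteasome, was the member that rose (0.91), a call lost without tumor 1 (0.59, adjusted p = 0.0633). Of 7 class II genes, which mark antigen-presenting cells, 0 were called by edgeR and 0 had an unadjusted p under 0.05. DESeq2 called Cd74, the invariant chain gene, lower, and without tumor 3 edgeR called 4 lower. Of 28 interferon-stimulated genes 12 (42.9%) were lower and 2 (7.14%) higher. By library totals 2 were lower and 4 higher, and without a filter 7 were lower. Iigp1, an interferon-induced GTPase, fell most (-3.89). Cxcl10, a chemokine for T cells, rose, at 3.23, 17.7, 60.5, 19.2 and 10.7 CPM in tumors 1 to 5, though tumor 1 lay within the livers, and its log2 fold change of 2.28 was 1.47 without tumor 3. Acute phase proteins were lower for 15 of 20, and 6 of these genes are also in the plasma protein list. Hamp, the iron hormone hepcidin, fell by 5.24 on the log2 scale. Saa3, a serum amyloid made outside hepatocytes too, was the member that rose, at 78.0, 33.8, 24.0, 10.5 and 149 CPM in tumors 1 to 5 and 8.11, 5.97, 6.45, 6.08 and 5.02 CPM in livers 1 to 5.

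The tumors differed more among themselves than the livers. The standard deviation of log2 CPM had a median over genes of 0.447 among tumors and 0.248 among livers, and it was larger among tumors for 11437 genes (79.8%). Pearson's r between tumors was 0.900 to 0.963 across genes and between livers 0.972 to 0.987, which describes these libraries since genes are not independent. Without tumor 1 the median among tumors was 0.311, and without liver 4 that among livers was 0.210. The 75 genes high in tumor 2 alone, against 2 to 7 in each other tumor, were the largest such set.

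Tumor 2 stood apart for several biliary and progenitor markers. Krt19 and Krt7, keratins of bile duct cells, stood at 0.610, 191, 2.33, 0.0953 and 2.27 CPM and at 0.165, 80.9, 0.265, 0.0545 and 0 CPM in tumors 1 to 5, with no liver above 2.87 and 2.22 CPM. Spp1, osteopontin, was at 38.6, 466, 24.4, 2.81 and 4.68 CPM in the tumors and at 105, 85.8, 67.1, 36.7 and 79.5 CPM in the livers. Tspan8, a tetraspanin, was at 0.395, 94.4, 0.450, 0.259 and 0 CPM in the tumors. Among the rest, Cdh17, a cadherin of intestine, was at 173 CPM in tumor 2 with 0 CPM in every liver, the calcium-binding gene S100a6 at 411.5 CPM (log2 fold change 6.04, and 1.59 without tumor 2), the adhesion receptor Cd44 at 156 CPM and the cartilage proteoglycan Acan at 128 CPM. Sox9, a progenitor factor, was at 1.14, 18.3, 0.680, 0.3 and 0.737 CPM and Epcam, an adhesion molecule of ducts, at 0.610, 22.2, 0.715, 0.191 and 0.138 CPM in tumors 1 to 5. Of 13 tested biliary and progenitor markers 4 were higher and 3 lower, and their summed level was 129 to 973 CPM in tumors and 307 to 371 CPM in livers. Without tumor 2, 3 were higher and 6 lower, and the median moved from 1.37 to -0.92 relative to all genes. Krt7, Tspan8, Epcam and Sox9 were then called lower, with log2 fold changes of -3.82, -2.38, -3.19 and -2.59, and Krt19 and Cd44 were not called (-0.53 and -0.077). Krt7, not called over all tumors, was called higher by edgeR without tumor 1, 4 or 5 (adjusted p from 0.042 to 0.0495). Tspan8 also lost its call without any single liver (adjusted p from 0.0528 to 0.0708). Alb in tumor 2 was within the range of the other tumors, and so were H19 and Igf2.

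**Figure D5:**
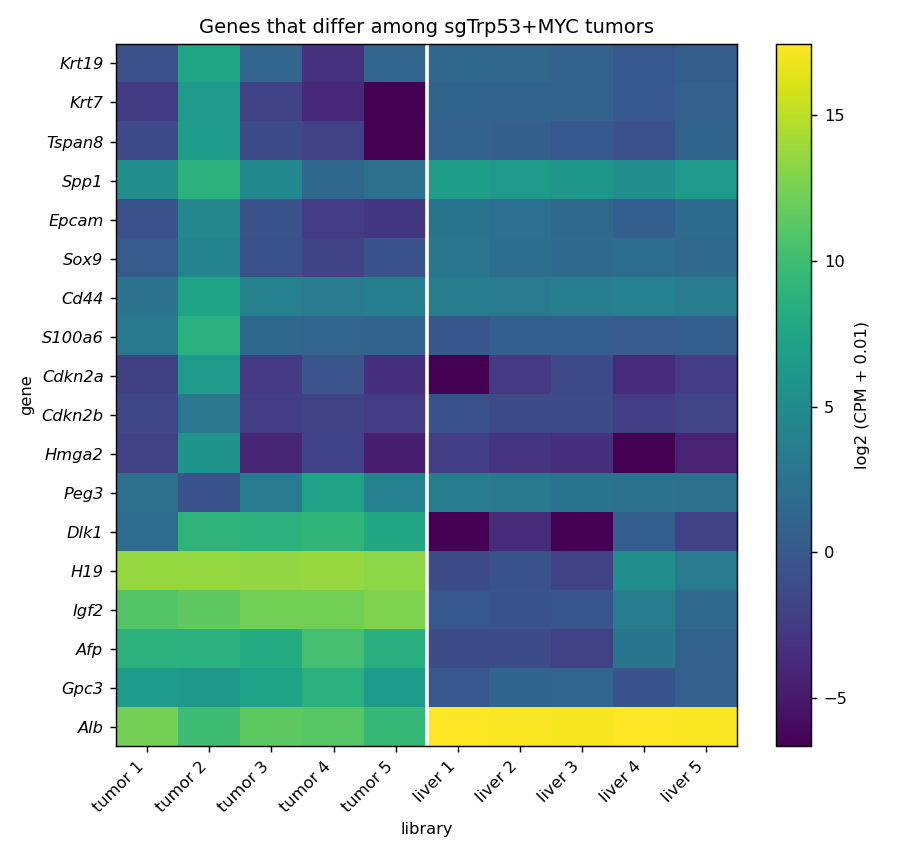
Log2 of CPM + 0.01 (color) of 18 genes (rows) in 5 sgTrp53+MYC tumors and 5 livers (columns). Krt19, Krt7, Tspan8, Cdkn2a and Hmga2 are high in tumor 2 alone, Peg3 in tumor 4, and Dlk1 is low in tumor 1.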

How the data were processed

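RNA of 5 sgTrp53+MYC tumors and 5 livers was sequenced as bulk tissue; 10 further tumor libraries entered the fit. The authors deposited 2 tables of raw read counts for 50559 gene rows, made after demultiplexing with bcl2fastq 2.20.0.422 alignment with HISAT2 (version not given in the sources used here) and counting with htseq-count on RefSeq genes, with reads shared by genes left out; 5 summary rows per table were kept out of library sizes and tests. Columns not used numbered 0. Genes with at least 1 CPM in 5 of 20 libraries were kept (14333). Counts were scaled by TMM and tested with edgeR 4.0.16 (quasi-likelihood, 4 groups, Benjamini-Hochberg threshold 0.05) in R 4.3.3; DESeq2 1.42.0, other scalings, filters and left-out libraries were alternatives. Positions and promoter starts are from GENCODE on GRCm39, with positions for 13794 tested genes. Through RefSeq synonyms 20 symbols were matched by an older name, and Mars1 had no row. Floors (3 counts) and exact Poisson intervals (95%) cover counting error only. Each SE of a log2 fold change was derived as its absolute value divided by the square root of the quasi-likelihood F statistic.

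Comparison, gene lists and tests were chosen with earlier results of these data known. The text names Trp53, Myc, Afp and Gpc3, the 12 called genes highest and the 12 lowest without overlap at 10 CPM or more, the 10 genes with the most reads in either group, the 2 largest rises and falls and the member with the most reads of each list, and the 3 most variable genes of tumors; other genes were named after their values were seen.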

Additional observations from a re-analysis of the deposited data

Results flagged for a closer look

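In 68 of 442 sets of 5 libraries the highest or lowest library lay far from the rest by Dixon's ratio (above 0.71). Chance flags about 1 in 20 sets at this ratio only where values are normally distributed. CPM and read counts are skewed, and a set near 0 can pass with 1 read. The 68 sets can therefore not be read as more than chance gives. Of the 68 sets, 47 were of tumors and 21 of livers. Tumor 2 (19) and liver 4 (14) were the library in question most often. Many of the genes were named for such values, so the counts describe the genes printed. The causes were not tested.

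Tumor 1 stood apart with CPM of 867 for Arg1, 1.25 for Cd79b, 42.5 for Cyp27a1, 16.1 for Cyp2b13 and 578 for Cyp3a11. In tumor 1 apart from the rest were also Hamp at 153 CPM, Nqo1 at 3.28 CPM, Psmb10 at 214 CPM and Rpl35 at 1926 CPM. Pck2 was low in tumor 1, at 20.4 CPM, with the next tumor at 53.4 CPM. In tumor 1 apart from the rest were also Sms at 130.3 CPM. Tumor 2 stood apart with CPM of 79.5 for Bax, 70.7 for Ccnd1, 51.6 for Ccnd2, 156 for Cd44 and 22.2 for Epcam. In tumor 2 apart from the rest were also Hmga2 at 56.7 CPM, Krt19 at 191 CPM, Krt7 at 80.9 CPM, Onecut2 at 9.53 CPM and S100a6 at 411.5 CPM. In tumor 2 apart from the rest were also Slc16a3 at 105 CPM, Sox9 at 18.3 CPM, Spp1 at 466 CPM, Tnfrsf10b at 12.8 CPM and Tspan8 at 94.4 CPM. It stood apart in reads as well, with 5785 of Cdkn2a, 537 of Cdkn2b, 274 of Slc7a11 and 12 of Tnnt3. Tumor 3 stood apart with CPM of 12.1 for A1bg, 60.5 for Cxcl10, 45.3 for Cyp2a4, 5.73 for Cyp3a44 and 7.31 for Emcn. In tumor 3 apart from the rest were also Myc at 4.30 CPM, Nlrc5 at 11.6 CPM and Pecam1 at 33.6 CPM. Psph was low in tumor 3, at 28.9 CPM, with the next tumor at 57.8 CPM. Tumor 3 stood apart in reads as well, with 5 of Atp2a1 and 125 of Cd8a. Tumor 4 stood apart with CPM of 1267 for Afp, 397 for Gpc3, 27.0 for Nr0b2, 151 for Peg3 and 3.74 for S100a8. Tumor 5 stood apart with CPM of 5.49 for Chac1. Liver 1 stood apart with CPM of 9.76 for Cd24a and, on the low side, 295 for Paics, with the next liver at 355 CPM. Liver 3 stood apart in reads with 1 of Slc7a11. Liver 4 stood apart with CPM of 2.87 for Acta2, 6.35 for Afp, 289.6 for Aldh1b1, 2.73 for Asns and 0.751 for Bub1. In liver 4 apart from the rest were also Car12 at 0.273 CPM, Ccna2 at 4.58 CPM, Cd4 at 1.16 CPM, Dlk1 at 1.5 CPM and H19 at 39.1 CPM. In liver 4 apart from the rest were also Igf2 at 11.2 CPM, Mycl at 54.0 CPM, Psat1 at 3.76 CPM and Trim71 at 0.0683 CPM. Liver 5 stood apart with CPM of 0.0398 for Dao. It stood apart in reads as well, with 2 of Myh4. Liver 5 had 2.09% of reads outside genes, with the next liver at 1.63%. Liver 5 had 15.7% of reads not aligned, with the next liver at 24.6%.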

How the results depend on the processing

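The main counts (5286 higher, 4733 lower, 1825 and 1791 at least 4-fold) were set against 21 alternatives. By library totals they were 8534, 2423, 3524 and 1042. Without a filter 3468 genes were at least 4-fold higher; a glmTreat test against 2-fold gave 2794 higher, and a fold of 8 gave 962 higher and 969 lower. With a filter of 5 CPM the medians relative to all genes were 7.55 for oncofetal, -1.42 for stellate, 2.02 for adipocyte and 6.22 for skeletal muscle genes; fewer members were then tested. By library totals Azin1 (0.33), Oaz1 (0.069), Oaz2 (0.33), Paics (0.74), Paox (0.31) and Rcl1 (0.22) changed sign, and Cdkn2d, Cd24a, Cela1, Chac1, COX1, Ddit3, Hnf4a, Myc, Plagl1 and Rbl2 lost their calls. Arntl, Atf4, Ctnnb1, Eef1a1, Emcn, Foxa1, Krt7, Ldha, Mdm2, Onecut1, S100a8 and Trp53 gained one, all higher, and the balance of clock, YAP and interferon genes turned to higher. Without a filter Azin1, COX1, Cdkn2d, Cela1, Oaz1, Oaz2, Paox, Plagl1 and Rcl1 lost their calls, and with 10 libraries only Azin1, Cd44, Paox, Peg3, Tead4 and Tspan8 did. Cyp7a1 was called with 10 libraries only (adjusted p = 0.00728, edgeR). The cause was not tested. Where 0 members of a list were called in a direction by edgeR, 0 had an unadjusted p under 0.05 and DESeq2 called 0, except Emcn, S100a8 and Cd74.

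With 1 library left out, the counts ranged from 5037 to 5296 higher, 4531 to 4757 lower, 1781 to 1878 at least 4-fold higher and 1753 to 1844 at least 4-fold lower. The medians relative to all genes ranged from -2.89 to -2.55 for periportal, from -0.92 to 1.69 for biliary, from 4.32 to 6.79 for oncofetal and from 0.86 to 2.11 for neutrophil genes. The median SD ranged from 0.311 to 0.469 among tumors and from 0.210 to 0.256 among livers. Log2 fold changes ranged from -0.077 to 2.05 for Cd44, -3.19 to 0.64 for Epcam, -0.53 to 4.68 for Krt19, -3.82 to 3.51 for Krt7 and -2.38 to 4.03 for Tspan8.

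Replicate numbers did not pair tumors with livers (correlations of same-numbered deviations from -0.155 to 0.0843). With the number as a replicate block 5079 genes were higher and 4233 lower, and the biliary median was -0.96 and Tspan8 -1.19. The livers, at 21376918 to 44427184 reads, limit what can be said of genes near 0.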
